A study of Pinus armandii with 6 samples.

Results

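The 2S albumins described here are 5 unigenes (assembled transcripts) of Pinus armandii seed kernels, out of 65117 in the expression table. They were taken from a fixed list of identifiers, which was chosen with earlier results of these data known. All 5 carry the gene symbol PINP1. For Unigene0000183, Unigene0000182, Unigene0003607 and Unigene0052158 the best database hit is albumin 1 of Pinus strobus, and for Unigene0024661 it is a 2S albumin-like protein of Picea glauca. The list is not the whole family as annotated: 7 unigenes carry the symbol PINP1, and the 2 outside the list, Unigene0011419 and Unigene0024932, moved the opposite way and are described beside the members.

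RNA sequencing compared kernels of cones harvested at the end of August with kernels of cones harvested at the end of September, with 3 libraries per month. The labels name biological replicates but give no tree, genotype or treatment for any library. How far the replicates were separate in origin is not stated, and p-values cover only the variation seen among these 6 libraries, which may be technical. The labels describe no dissection, so embryo and megagametophyte, the storage tissue around the embryo of a pine seed, were measured together. In such bulk samples fewer cells of a type and less RNA per cell cannot be told apart.

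2S albumins are small, cysteine-rich seed storage proteins. In flowering plants, where they are best studied, they are made as precursors in the endoplasmic reticulum, folded with disulfide bonds, carried to protein storage vacuoles and cut there into a large and a small subunit. The seedling breaks them down as a source of nitrogen and sulfur, and in many nuts and seeds they are known as allergens. They belong to the prolamin superfamily, which also holds the non-specific lipid transfer proteins.

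Total counts per library ran from 12849649 to 17379628. Pearson correlations of log2(CPM + 1) across unigenes, which are not independent replicates, lay between 0.987 and 0.992 for libraries of the same month and between 0.886 and 0.897 for libraries of different months (CPM, counts scaled to the size of the library in the usual way). The summed level of 5 unigenes for chlorophyll-binding proteins and the small subunit of RuBisCO was 66.6 to 103 CPM in August and 80.2 to 104 CPM in September, with overlap. Of these 5 unigenes 3 were tested, of which 2 passed as higher in September and 0 as lower (35.4% and 32.5% of all tested unigenes). The median of their log2 fold changes was 2.12, and their part in the results was not tested. Unigenes whose best hit was from any of a few protist genera, a set chosen after the data were seen, summed to 213 to 432 CPM in August and 132 to 182 CPM in September, without overlap, and the part of these in the results was not tested either. The most abundant storage globulin, pine globulin-1 (Unigene0000942), measured 2271 ± 369.5 CPM for August and 3255 ± 503 CPM for September (SD, n = 3 each), so transcripts of seed storage proteins were plentiful in both months.

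All 5 members were higher in September. In the quasi-likelihood test of edgeR, with p-values adjusted by Benjamini-Hochberg over all tested unigenes and a limit of 0.05, 5 of 5 passed, and in each the 3 September libraries lay above the 3 August libraries. Change was common in this comparison. Of 23216 tested unigenes 67.8% passed, made up of 35.4% higher and 32.5% lower in September. Every September library lay above every August library in 37.8% of tested unigenes and below in 35.0%. Unigenes passing as higher had a median log2 fold change of 1.63, all tested unigenes one of 0.03 and the members one of 0.88, so 4 of the 5 members lay below the median of the risers. Counts of the members were above the minimum count of 10 for testing in every library, with 33 or more in each.

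Unigene0024661, the 2S albumin-like member, took the most reads and changed the least. Its level was 344, 369 and 338 CPM in the August libraries and 500.2, 489.9 and 497 CPM in the September libraries. The libraries of a month lay close together, and the months did not overlap. It rose by 0.50 on the log2 scale (SE 0.0545, edgeR adjusted p = 2.4e-05), or 1.42-fold.

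Unigene0000183 was the highest member per unit of length. It stood at 172, 251 and 181 CPM in August and at 316, 375 and 421 CPM in September. The second August library was the highest of its month and still lay below every September library. The rise was 0.88 on the log2 scale (SE 0.143, edgeR adjusted p = 0.000346), or 1.84-fold.

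Unigene0000182 shares its best hit with Unigene0000183. Its values were 44.9, 69.5 and 43.7 CPM in August and 77.8, 91.7 and 123 CPM in September. Here too the second August library was the highest of its month, and the gap between the months was the narrowest in proportion among the members, from 69.5 to 77.8 CPM. The log2 fold change was 0.89 (SE 0.197, edgeR adjusted p = 0.00248). The FPKM of Unigene0000183 was 5.83 ± 0.409 times that of Unigene0000182 in August and 5.81 ± 0.563 times in September (SD, n = 3 each; FPKM is reads scaled by library size and by unigene length), with overlapping libraries, so this pair kept its proportion within the spread of the libraries.

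Unigene0003607 went from 34.4, 40.5 and 40.3 CPM in August to 61.4, 65.7 and 69.9 CPM in September. The spread within each month was small beside the difference. Its log2 fold change was 0.78 (SE 0.0879, edgeR adjusted p = 3.3e-05), a 1.71-fold rise. The deposited annotation gives this unigene the function phosphatase activity, which is not a known role of storage albumins, and how that term was assigned is not given in the sources used here.

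Unigene0052158 was the lowest member and changed the most. It had 2.56, 3.34 and 2.10 CPM in August and 19.5, 19.0 and 26.6 CPM in September, an 8.16-fold rise (log2 fold change 3.03, SE 0.209, edgeR adjusted p = 1.2e-06). August rested on 33 to 45 counts per library and September on 286 to 338, and the months stood far apart. Of all tested unigenes, 8.16% had a log2 fold change at least as high. Its annotation differs from that of the other members too, with the terms extracellular region and ion channel inhibitor activity.

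**Figure D1:**
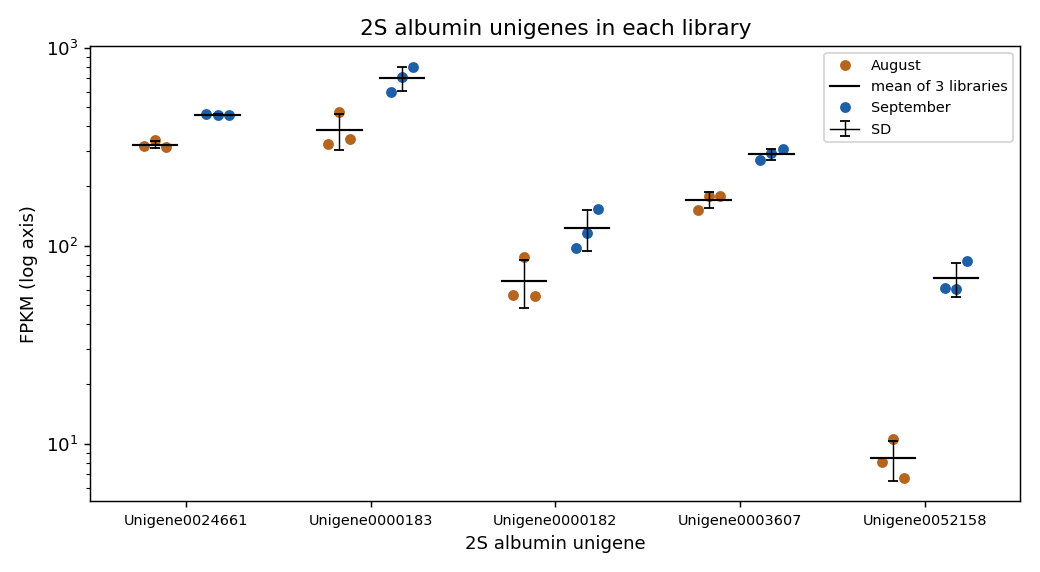
FPKM of the 5 unigenes (log axis) in each of the 3 August and 3 September libraries, with points for libraries, long bars for the mean and error bars for the SD. Every September point lies above every August point of the same unigene, and Unigene0052158, from 8.43 to 68.5 FPKM on average, shows the widest step.

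Levels can be compared between members only per length. Count and FPKM together gave lengths of 1075 bases for Unigene0024661, 789 for Unigene0000182, 523 for Unigene0000183, 314 for Unigene0052158 and 225 for Unigene0003607, so the unigenes are not of one length and some can be fragments of a longer transcript. In August the order by FPKM was Unigene0000183 (383 ± 80.0), Unigene0024661 (324 ± 13.8), Unigene0003607 (169.8 ± 15.6), Unigene0000182 (66.4 ± 18.1) and Unigene0052158 (8.43 ± 1.95; SD, n = 3 each). The first pair in that order overlapped between libraries, and the other neighbours did not. In September it was the same order, at 702 ± 99.7, 457 ± 2.77, 289.5 ± 18.5, 123 ± 28.7 and 68.5 ± 13.3 FPKM, with no overlap between neighbours. Among all 65117 unigenes, Unigene0000183 ranked 70 by mean FPKM in August and 34 in September, and Unigene0052158 ranked 9076 and 1108.

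Summed over the 5 members, the level was 598, 732 and 605 CPM in August and 974, 1041 and 1137 CPM in September. That is 645 ± 75.7 against 1051 ± 82.0 CPM (SD, n = 3 each), a ratio of 1.63 without overlap, and no p-value is given for a sum over chosen members. In FPKM the ratio was 1.72. Of the members' counts Unigene0024661 held 54.5 ± 3.75% in August and 47.3 ± 3.84% in September, with overlapping libraries. Of the members' FPKM it held 34.3 ± 2.90% in August and 28.0 ± 2.80% in September, where the libraries just missed overlapping, at 31.1% and 31.0% (exact two-sided permutation p = 0.1, adjusted over the 5 to 0.250, n = 3 each). Unigene0052158 had 0.410 ± 0.0566% of the counts in August and 2.05 ± 0.265% in September, without overlap. In exact two-sided permutation tests of the shares of counts of the 5 members, adjusted over the 5, the values ran from 0.333 to 0.400, and the smallest unadjusted p the design allows is 0.1, which Unigene0052158 reached (n = 3 each).

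The most abundant albumin transcript was Unigene0011419, which is not in the list but has the same symbol and the same albumin 1 hit as 4 members. It fell, from 3246, 2783 and 2800 CPM in August to 1148, 1212 and 1358 CPM in September. The months were far apart, and the log2 fold change was -1.25 (SE 0.0832, edgeR adjusted p = 9.7e-07). It ranked 5 among all unigenes by mean FPKM in August and 15 in September. Its FPKM was 2.85 ± 0.554 times the summed FPKM of the members in August and 0.683 ± 0.0119 times in September (SD, n = 3 each). In FPKM, where short unigenes weigh as much as long ones, the members together thus exceeded it in September. In CPM they did not: their sum of 974, 1041 and 1137 lay below its level in every September library, and it held 79.6 ± 3.41% of the PINP1 counts in August and 53.7 ± 0.384% in September.

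Where unigenes are nearly alike the quantification can split reads between them, and without the assembled sequences how alike Unigene0011419 and the members are was not tested. In CPM the members together gained 406 from August to September and Unigene0011419 changed by -1704. Summing only the 4 members with the albumin 1 hit gave a log2 fold change of 0.91 (edgeR adjusted p = 0.000254), close to Unigene0000183 and far from the 3.03 of Unigene0052158. When all 7 unigenes with the albumin 1 hit were summed, the log2 fold change was -0.78 (edgeR adjusted p = 2.5e-05), opposite to the 4 members among them. Over all 7 PINP1 unigenes the sum was 3947, 3674 and 3466 CPM in August and 2138, 2271 and 2509 CPM in September, lower in September without overlap. The rise of the members is thus a statement about these 5 unigenes and not about albumin transcripts as a whole, whose sum was lower.

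**Figure D2:**
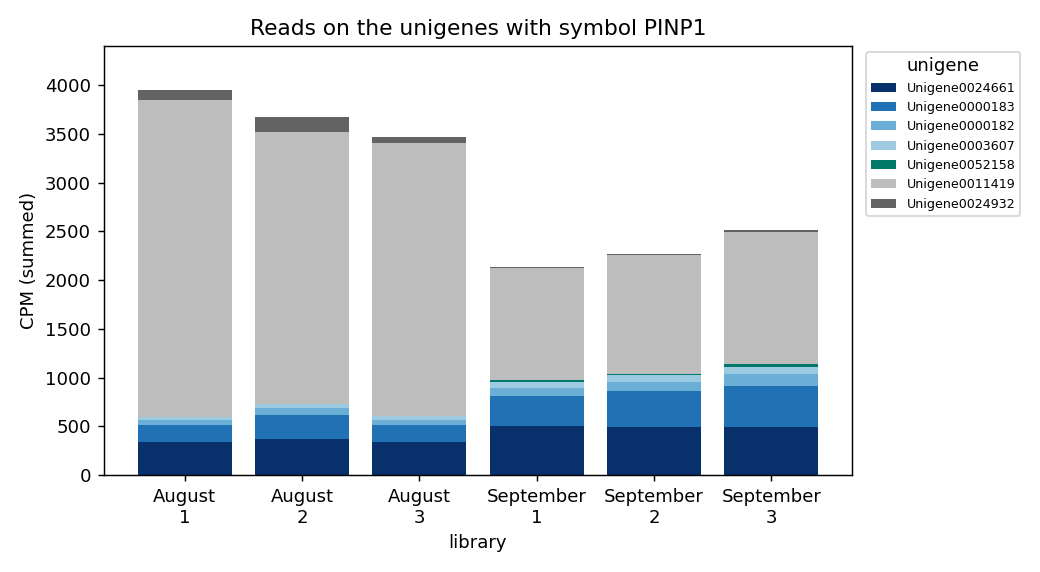
Stacked CPM of the 7 unigenes with symbol PINP1 in each library, with the 5 members in blue and green and the other 2 in grey. The coloured part averages 645 CPM in August and 1051 CPM in September, and the whole column 3696 and 2306 CPM.

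Outside the members, 9 unigenes were albumin-named, of which 5 were abundant enough for the test, 2 higher and 3 lower (35.4% and 32.5% of all tested unigenes). Besides Unigene0011419, Unigene0024932, with an albumin 3 hit of Pinus strobus and the symbol PINP1, fell from 103, 159 and 61.1 CPM to 15.9, 18.0 and 13.5 CPM (log2 fold change -2.76, SE 0.298, edgeR adjusted p = 2.4e-05). The August libraries of this unigene were spread widely, yet all lay above September. Unigene0074696, with an albumin 4 hit, fell from 2.90 ± 1.22 to 0.505 ± 0.116 CPM (edgeR adjusted p = 0.000611, n = 3 each). The risers both have the albumin 1 hit: Unigene0018117 went from 21.4 ± 6.46 to 59.4 ± 3.13 CPM (log2 fold change 1.48) and Unigene0013064 from 0.258 ± 0.209 to 1.53 ± 0.562 CPM (SD, n = 3 each). By best hit, then, 6 of the 7 albumin 1 unigenes were higher in September and the most abundant was lower, and both tested unigenes with an albumin 3 or albumin 4 hit were lower.

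**Figure D3:**
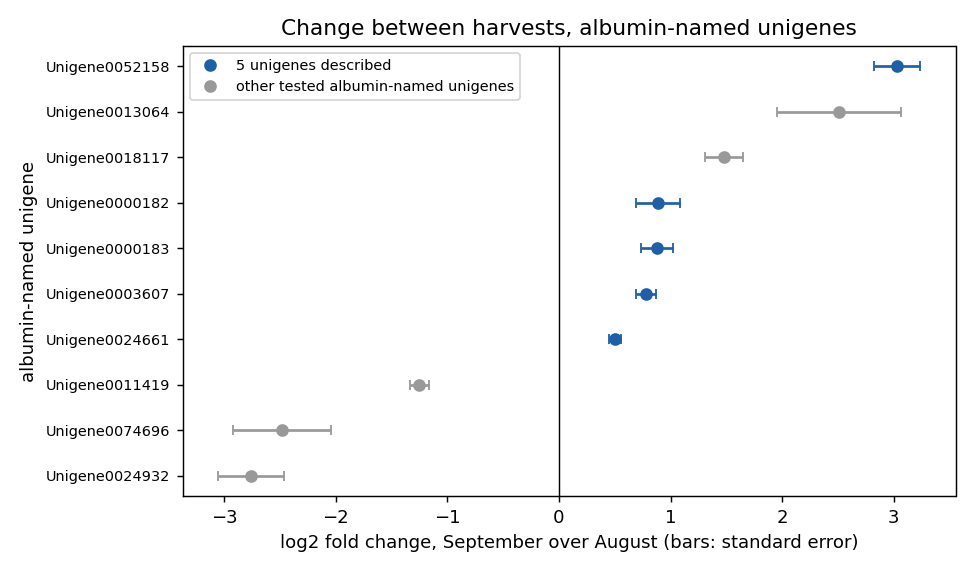
Log2 fold change, September over August, with its standard error, for the 10 tested albumin-named unigenes, the 5 members in blue and the others in grey. The members lie between 0.50 and 3.03, and the 3 unigenes below 0 are all outside the list.

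Storage globulins, the other large class of seed storage protein, are the nearest comparison by function. Of 6 tested, 4 were higher, 1 lower and 1 did not pass, where 35.4% of all tested unigenes were higher and 32.5% lower. Their median log2 fold change was 0.85. The members had 0.88, but their list leaves out the falling albumins, and the 5 other tested albumin-named unigenes had -1.25. Pine globulin-1 rose by 0.52 on the log2 scale (SE 0.129, edgeR adjusted p = 0.00495). The legumin-like GLUA1 (Unigene0000426) rose from 203 ± 7.39 to 386 ± 54.3 CPM and the vicilin AMP2-1 (Unigene0070812) from 332 ± 7.74 to 568 ± 15.8 CPM (SD, n = 3 each). A second vicilin unigene, Unigene0070811, rose by 3.74 on the log2 scale. The vicilin-like Unigene0009117 fell from 13.0 ± 2.91 to 7.56 ± 0.222 CPM (log2 fold change -0.79, edgeR adjusted p = 0.00267). The legumin-like Unigene0007505, at 0.626 ± 0.330 and 1.30 ± 0.638 CPM, did not pass (edgeR adjusted p = 0.0903). Summed globulins went from 2823 ± 357 to 4255 ± 502 CPM, a ratio of 1.51. The sum over all 7 PINP1 unigenes went the opposite way, with a ratio of 0.624.

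Genes of the route from transcription to stored protein were counted from word lists. Over all tested unigenes 35.4% were higher and 32.5% lower, and the counts of each list are to be read beside these shares. Of 6 tested matches to the list of seed-programme regulators, 2 were higher, 0 lower and 4 did not pass. Unigene0004804, Unigene0004792 and SUA matched only because ABI3 stands in the name of another protein. Whether these act as regulators of storage protein genes was not tested. VP1 (Unigene0069436), the conifer counterpart of ABI3, which in flowering plants switches on storage protein genes, rose from 138 ± 2.87 to 256 ± 13.1 CPM (log2 fold change 0.90, SE 0.0581, edgeR adjusted p = 8.1e-07, n = 3 each). The other match that passed as higher was Unigene0004804, with an ABI3-interacting protein 2 hit, which had 0 counts in August and 1.51 ± 0.547 CPM in September. Neither the unigene with the symbol ABI3 itself (Unigene0018349; 3.54 ± 0.917 CPM in August, 2.55 ± 0.202 in September, edgeR adjusted p = 0.153) nor BZIP53 (Unigene0069211; 1.30 ± 0.774 and 0.886 ± 0.357 CPM, edgeR adjusted p = 0.364) passed, both being low. SUA (Unigene0043164), whose best hit is named SUPPRESSOR OF ABI3-5, did not pass either (edgeR adjusted p = 0.199). The most abundant match, an ABI3-interacting protein 3 (Unigene0004792), was at 294 ± 32.6 and 301 ± 11.6 CPM (edgeR adjusted p = 0.705). Both unigenes with the symbol NFYB6, a CCAAT-box factor of the LEC1 type known from seed development, rose, Unigene0072012 from 7.77 ± 2.46 to 14.6 ± 1.10 CPM and Unigene0024626 from 2.29 ± 0.178 to 6.97 ± 0.356 CPM (SD, n = 3 each), and they were added by symbol after the data were seen.

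For disulfide folding, 17 of 66 tested matches were higher, 24 lower and 25 did not pass, with a median log2 fold change of -0.05. Of all tested unigenes 35.4% were higher and 32.5% lower. Most matched through the term protein disulfide isomerase activity, which also covers thioredoxin-like proteins outside the endoplasmic reticulum. The most abundant, Unigene0025769, fell from 514 ± 28.1 to 224 ± 25.8 CPM, and the TPR repeat-containing thioredoxin TTL1 (Unigene0004494) showed the largest change among those of 5 CPM or more, 9.72 ± 1.13 to 72.0 ± 3.87 CPM (SD, n = 3 each).

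The word list for vacuolar sorting had 4 tested matches, 1 higher and 1 lower, where 35.4% of all tested unigenes were higher and 32.5% lower. They matched by names of subunits of the retromer, which recycles sorting receptors. Whether each match, Vps26c included, belongs to the retromer was not tested. VPS26B (Unigene0039349) fell from 50.1 ± 3.20 to 39.7 ± 2.90 CPM, Vps26c (Unigene0026243) passed as higher with an edgeR adjusted p of 0.0388 and overlapping libraries, a call lost without the first or the second August library and without the first or the third September library, and VPS35B (Unigene0068632) stood at 89.2 ± 8.88 and 79.2 ± 5.63 CPM (edgeR adjusted p = 0.102, n = 3 each). Of 6 tested sorting receptors added by symbol after the data were seen, 1 was higher and 4 lower. VSR6 (Unigene0069932) fell from 205 ± 4.32 to 60.5 ± 0.748 CPM, and VSR4 (Unigene0072320) from 349 ± 24.7 to 295 ± 17.8 CPM.

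Processing enzymes matched by word were too low for the test. A list by symbol was therefore added after the data were seen. In it the aspartic proteinase APA2 (Unigene0056398) fell from 691 ± 34.3 to 386 ± 14.1 CPM and APA1 (Unigene0056397) rose from 5.27 ± 1.05 to 12.2 ± 0.693 CPM (SD, n = 3 each). Lipid transfer matches, which include the distant relatives of the albumins by fold, went both ways. Of 19 tested, 6 were higher and 8 lower, where 35.4% of all tested unigenes were higher and 32.5% lower. Their median log2 fold change was -0.27. The largest change of 5 CPM or more was that of a lipid transfer protein with a Picea abies hit (Unigene0052737), from 5.70 ± 1.56 to 43.8 ± 3.34 CPM. The most abundant match, SFH6 (Unigene0019953), a phosphatidylinositol transfer protein by name and no prolamin relative, went from 485 ± 8.10 to 402 ± 9.37 CPM.

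Among 1498 tested unigenes with an informative description and a mean of 20 CPM or more, those nearest to the summed members over the 6 libraries, by root mean square difference of centred log2(CPM + 1), were an actin (ACT7, Unigene0055969; 0.0643), an RNA-binding protein (rbm24, Unigene0073480; 0.0669), the transcription factor BEH4 (Unigene0027352; 0.0807), a mitochondrial carrier (ucpB, Unigene0045672; 0.0817) and the oligopeptide transporter OPT3 (Unigene0029598; 0.0885). Each rose between 0.75 and 0.86 on the log2 scale, and a rise of about this size follows from choosing them by nearness.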

How the data were processed

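Estimated counts per unigene and library were deposited by the authors, not normalized, with FPKM values beside them, per the file headers. The submitters' processing notes name fastp (read trimming) and RSEM (quantification). The sources do not name the assembler, the annotation programs or the strandedness. Counts were rounded before testing, which altered 8 of 390702 values. Tests used edgeR 4.0.16 in R 4.3.3 with TMM factors, filterByExpr by month (minimum count 10, minimum total count 15), the quasi-likelihood F test over all 23216 tested unigenes and Benjamini-Hochberg adjustment at 0.05. The F statistic gave the standard errors. CPM values include the TMM factor. DESeq2 1.42.0 and limma 3.58.1, on log2(FPKM + 1), were alternatives. The pipeline was tested on simulated data. Libraries were grouped by harvest month, and no pair agreed within sampling noise (chi-square per unigene 4.92 to 8.33 within months). Named were all members, in each word list the most abundant unigene and the passing one with the largest change at 5 CPM or more, and the 5 unigenes of nearest pattern. GLUA1, AMP2-1, Unigene0009117, Unigene0007505, Unigene0004804, Unigene0018349, Unigene0069211, Unigene0043164, Unigene0024626, VPS26B and the albumin-named unigenes other than Unigene0011419 and Unigene0024932 were added after their values were seen. The lists by symbol, for processing enzymes, sorting receptors and NFYB6, were also added after the data were seen. Members and lists were chosen with earlier results of these data known. Shares were compared by exact permutation over 20 orderings.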

Additional observations from a re-analysis of the deposited data

How the results depend on the processing

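Each of the 5 members kept its direction and passed under other size factors, total-count scaling, no filter, DESeq2, limma on FPKM, the replicate block and without any single library. Log2 fold changes then ran from 0.45 to 0.52 for Unigene0024661, 0.75 to 1.05 for Unigene0000183, 0.70 to 1.11 for Unigene0000182, 0.67 to 0.82 for Unigene0003607 and 2.85 to 3.19 for Unigene0052158, and the highest adjusted p was 0.0162, for Unigene0000182 without the first August library. With a replicate block the members had 0.50, 0.89, 0.89, 0.78 and 3.02, in the order named, and all 5 passed. Replicate numbers are not stated to mark a shared tree or day. Deviations of same-numbered libraries correlated at 0.0924, 0.0430 and 0.0300, and those of other numbers at -0.0862 to 0.0426. With the block 8027 unigenes were higher and 7401 lower, against 8209 and 7541 without it. By these correlations 5 of 6 libraries lay nearest to their own number, which is a hint from the data and not the design. For the second September library the lead was only 0.0430 against 0.0426.

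What decides the direction is which unigenes are counted. With the 4 albumin 1 members summed into 1, the log2 fold change was 0.91 (edgeR adjusted p = 0.000254), against 3.03 for Unigene0052158 alone. Summed with every unigene of the same best hit, the 4 albumin 1 members had -0.78, and the summed level, with a log2 ratio of 0.70, had -0.68 over all PINP1 unigenes and -0.65 over all pine or spruce albumin hits. These sums were chosen after seeing the data, and they turn because Unigene0011419 enters them. Without single libraries the summed members ran from 0.63 to 0.78. The share of Unigene0003607 went up by 0.275 points in counts and changed by -0.257 points in FPKM, with overlapping libraries on both. Within a library the shares of counts and of FPKM differ only through the scaling by unigene length. Vacuolar sorting, at 1 higher and 1 lower, had 0 higher with no filter, 2 higher by limma, 0 to 1 higher and 1 to 2 lower without single libraries, and the regulators had 0 to 1 lower. Depth limits Unigene0052158 most, with 33 counts in its lowest library.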
